A study of Homo sapiens with 8 samples.

Results

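The transcription factor ATF4 and 9 genes that act with it or under it in the integrated stress response were followed in KYSE150, an established cell line from a human squamous carcinoma of the esophagus. The 10 genes were ATF4, DDIT3, CHAC1, SESN2, TRIB3, CEBPB, CEBPG, ATF5, PPP1R15A and DDIT4. They were chosen by name, with earlier results of these data known, and matched exactly to the gene symbols of the count table. All 10 were found among its 16082 genes, and all 10 passed the filter on low counts. The tested cells carried a short hairpin RNA against HNRNPC (shHNRNPC, 4 samples), and the reference was the same line with the genotype label Control (4 samples). No sample had a further treatment. HNRNPC encodes a nuclear protein that coats nascent transcripts and shapes their splicing, and the study concerned its part in splicing of BOLA3. The sources used here do not give the hairpin sequence, the number of hairpins, the time after knockdown or whether a control hairpin was used. The labels do not mention separate cultures, and p-values therefore measure only how far these samples differ, perhaps for technical reasons.

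In the integrated stress response, sensor kinases phosphorylate the initiation factor eIF2 when amino acids run short, proteins misfold in the endoplasmic reticulum, mitochondria fail or double-stranded RNA appears. General translation then slows, while a few mRNAs whose upstream reading frames normally hold ribosomes back, ATF4 among them, are translated better. The ATF4 protein pairs with other leucine zipper proteins, mostly of the C/EBP family, and switches on genes for amino acid synthesis, uptake and redox balance, together with feedback genes that end the response. Read counts measure mRNA, and neither the phosphorylation of eIF2 nor the amount of ATF4 protein was measured here.

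ATF4 and its partners bind a composite DNA element in which a C/EBP site abuts an ATF site. Windows ran from 250 bases before to 50 bases after the RefSeq starts that were available (GRCh38.p14). They were searched on both strands for the core of the composite element, TGATGNAA, the cyclic AMP response element TGACGTCA and the C/EBP-like motif TTGCNNAA. All 10 genes had at least 1 window. No 2 of the sites printed share bases of a motif. The following 30-base stretches, written 5' to 3' on the strand of the gene, hold every match that lies before a start, and they are shown because they are where these promoters hold letters of the ATF4 and C/EBP elements. Capitals mark the motif.

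CHAC1 (TGATGNAA on the opposite strand, chr15:40953251-40953280, plus strand): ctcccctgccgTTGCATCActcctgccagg
CEBPG (TGATGNAA, second of its 2 starts, chr19:33374060-33374089, plus strand): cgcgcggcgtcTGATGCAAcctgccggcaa
PPP1R15A (TGACGTCA, chr19:48872352-48872381, plus strand): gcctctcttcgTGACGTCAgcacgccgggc
PPP1R15A (TTGCNNAA, chr19:48872263-48872292, plus strand): ccgccgtgacgTTGCAAAAgctggaatctc
SESN2 (TTGCNNAA, chr1:28259286-28259315, plus strand): actaaaccgtcTTGCAAAAgtttgcagcat
ATF5 (TTGCNNAA on the opposite strand, first of its 3 starts, chr19:49928791-49928820, plus strand): ctggcaggaaaTTCTGCAAgcaaggaaagg

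TGATGNAA was present for 2 of the 10 genes, against 4.46% of the 27305 genes with a window. TGACGTCA was present for 1 of the 10, against 2.25%, and TTGCNNAA for 3 of the 10, against 12.7%. ATF4, DDIT3, TRIB3, CEBPB and DDIT4 held none of these letters in their windows, which says nothing of sites elsewhere. The first TRIB3 window begins at 381045, past the start of its gene at 380760. More of the genes share a feature of the message itself. In GENCODE release 29, an ATG upstream of the coding start is present in every basic coding transcript of 7 of the 10 genes (ATF4, ATF5, CEBPG, DDIT3, PPP1R15A, SESN2 and TRIB3), against 32.1% of 19567 coding genes. ATF4 has 3 to 7 such codons depending on the transcript, DDIT3 2 to 5, and PPP1R15A 2. CEBPB and DDIT4 have none in their only basic transcript.

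Library totals were 28323403 to 34913500 counts. HNRNPC itself was at 32.5 to 36.5 CPM (counts per 1000000, scaled by library size and TMM factor) in the shHNRNPC samples, against 571 to 601 CPM in the control samples, as labelled (log2 fold change -4.12). Samples within a group differed by 2.66 to 3.7 chi-square units per degree of freedom, so none repeated another within sampling noise. On the second principal component of log2 CPM, shHNRNPC replicates 1 and 4 (14.5 and 6.13) lay apart from replicates 2 and 3 (-8.98 and -12.1), with control samples between -2.25 and 2.1. Without either pair all 10 calls remained and no log2 fold change among the 10 genes moved by more than 0.05. Squamous markers were expressed (KRT5 1123 ± 13.7 CPM in shHNRNPC samples and 565 ± 6.6 CPM in control samples, TP63 129 ± 1.63 and 176 ± 2.14 CPM; SD, n = 4), whereas KRT13 and SOX2 averaged below 0.1 CPM in both groups, with at most 0.156 CPM in any sample. Of the 12 squamous markers 10 were tested, and 6 were higher and 4 lower, against 38.7% and 38.6% of all tested genes. Summed markers of fibroblasts spanned 8.38 to 9.5 CPM in shHNRNPC samples and 3.65 to 3.88 CPM in control samples, those of endothelium 1.24 to 1.91 and 2.19 to 2.52 CPM, and those of muscle 4.5 to 5.56 and 8.59 to 10.8 CPM. Leukocyte markers summed to 102 to 106 CPM and 212 to 225 CPM, of which CD68, with 85.8% of its exon bases overlapping other genes, gave 104 ± 1.53 and 216 ± 5.95 CPM, while CD14 was at 0.32 and 0.0982 CPM. The part of these markers in the results was not tested. Neural markers summed to 109 to 114 CPM and 74.9 to 77.3 CPM, almost all TUBB3.

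After HNRNPC knockdown, 9 of the 10 genes were lower and ATF5 was higher. In the comparison across all 12001 genes tested, 38.6% were called lower and 38.7% higher (quasi-likelihood test of edgeR, threshold of 0.05 on the adjusted p), so a call alone sets little apart. The sizes differed more from the background, though the 10 genes were chosen with earlier results of these data known. Of them, 6 were called and at least 2-fold lower, against 5.25% of tested genes. Another 1 was called and at least 2-fold higher, against 3.17%. The median log2 fold change was -1.17 for the 10 genes and -0.01 for all tested genes. The CPM ranges of the groups did not overlap for any of the 10 genes, which was true of 70.8% of tested genes. For 9 of them every shHNRNPC sample lay below every control sample, as for 35.4% of tested genes.

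**Figure D1:**
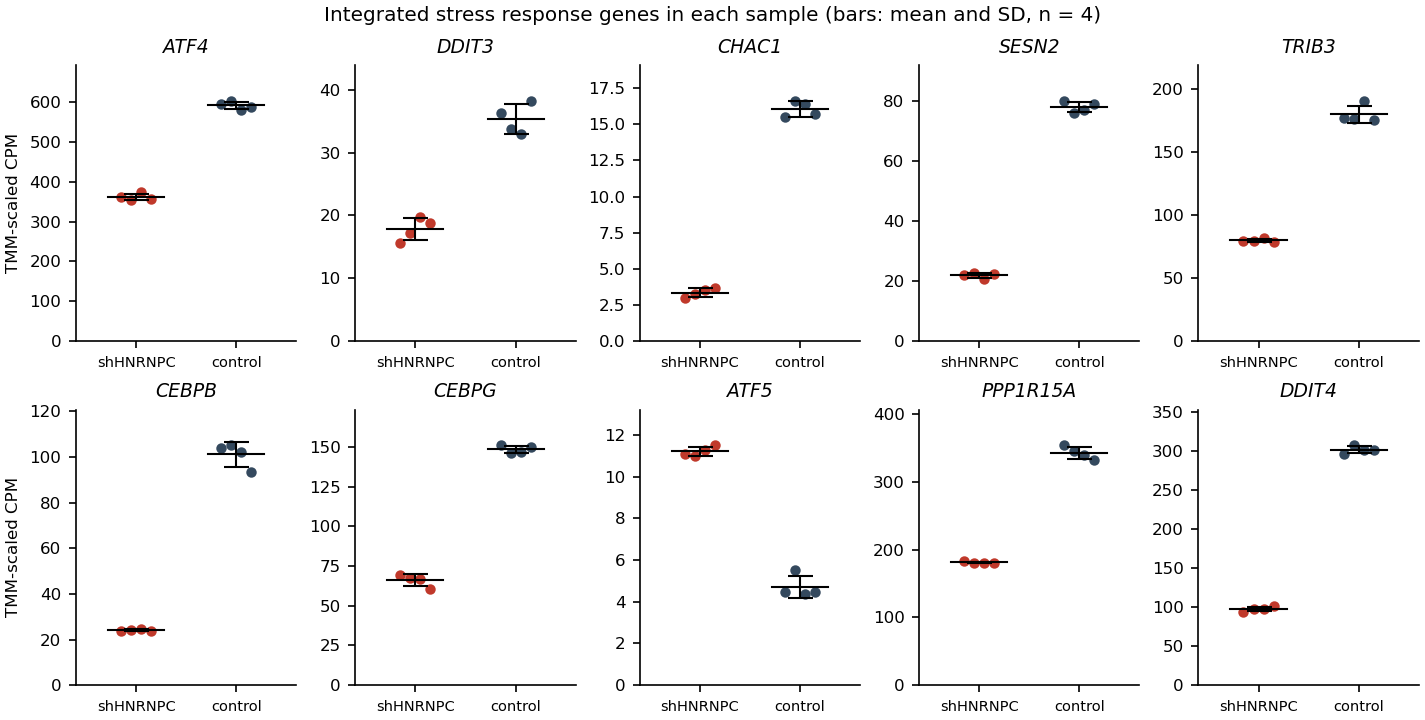
TMM-scaled CPM of each of the 10 genes (vertical axes, from 0) in the 4 shHNRNPC samples and the 4 control samples, with the mean and SD. In 9 panels every shHNRNPC point lies below every control point, and in the ATF5 panel all shHNRNPC points (11 to 11.5 CPM) lie above all control points (4.37 to 5.51 CPM).

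ATF4, the central activator, was at 363, 355, 374 and 356 CPM in the shHNRNPC samples, against 597, 603, 581 and 589 CPM in the control samples. All shHNRNPC samples lay at 61.1% of the control mean on average, and the spread within each group was small beside that gap. This log2 fold change of -0.71 (SE 0.0197; adjusted p = 2.89e-41, edgeR) was the smallest among the 10 genes. In bulk samples, less RNA per cell and fewer cells that express a gene cannot be told apart. ATF4 lies on chromosome 22 from 39520559 to 39522686 (RefSeq, GRCh38.p14), and no exon of another gene overlaps it. A processed copy, ATF4P3, matches 1056 bases of the ATF4 transcript at 97.5% identity, so reads from that stretch could have been split by the counting. The count table has no row under the symbol ATF4P3.

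The other leucine zipper factors separated into 3 that fell and 1 that rose. DDIT3 lies on chromosome 12 from 57516588 to 57520517, CEBPB on chromosome 20 from 50190583 to 50192690, and CEBPG (33373709 to 33382686) and ATF5 (49928906 to 49933935) on chromosome 19 (RefSeq, GRCh38.p14). DDIT3 encodes CHOP, a C/EBP relative induced by ATF4 that is linked to cell death in prolonged stress. DDIT3 was at 15.6, 17.2, 19.7 and 18.8 CPM in shHNRNPC samples, against 36.4, 33.8, 32.9 and 38.2 CPM in control samples. DDIT3 changed by -0.98 on the log2 scale (SE 0.0588; adjusted p = 6.61e-21, edgeR), with the widest relative spread of the falling factors. Other genes overlap 39.6% of DDIT3 exon bases. One of them, the methionyl-tRNA synthetase gene MARS1, was itself lower (363 ± 5.07 CPM in shHNRNPC samples and 667 ± 12.6 CPM in control samples, log2 fold change -0.88), and another, MBD6, did not pass the test (64.1 ± 2.7 and 61.6 ± 4.66 CPM; SD, n = 4). Their part in the DDIT3 counts was not tested.

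CEBPB, a C/EBP factor that dimerizes with ATF4 and is also an acute phase and inflammatory regulator, had the largest fall of the factors. It was at 23.6, 24.3, 24.8 and 23.9 CPM in shHNRNPC samples, against 104, 105, 102 and 93.3 CPM in control samples. The 4 shHNRNPC samples were almost level, at 23.9% of the control mean (log2 fold change -2.07, SE 0.0398, edgeR adjusted p = 5.84e-50). The antisense gene CEBPB-AS1, which has no row in the count table under that symbol, overlaps 11.8% of the CEBPB exon bases. Its part in the counts was not tested. CEBPG, a short C/EBP protein without an activation domain of its own that pairs with ATF4, was at 69.1, 67.8, 67.1 and 60.6 CPM in shHNRNPC samples, against 151, 146, 147 and 150 CPM in control samples. CEBPG changed by -1.17 on the log2 scale (SE 0.0305; adjusted p = 6.91e-42, edgeR), and shHNRNPC replicate 4 was the lowest of all 8 samples. CEBPG is 1 of the 2 genes with TGATGNAA in a promoter window.

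ATF5, the closest relative of ATF4 and a factor linked to mitochondrial protein stress, went the other way. It was at 11.1, 11, 11.3 and 11.5 CPM in shHNRNPC samples, against 4.49, 5.51, 4.37 and 4.45 CPM in control samples. All shHNRNPC samples stood above all control samples, at 238% of the control mean (log2 fold change 1.25, SE 0.0985, edgeR adjusted p = 3.94e-18). ATF5 rested on few reads, with 313 to 382 counts in shHNRNPC samples and 140 to 186 in control samples. Exons of other genes cover 23.7% of its exon bases. Among them NUP62, a nucleoporin gene on the opposite strand, was higher by less (145 ± 2.43 CPM in shHNRNPC samples and 116 ± 2.69 CPM in control samples, log2 fold change 0.33), and IL4I1 was at 0.159 and 0.0767 CPM. Since the counting is not stated to use strand, the part of NUP62 reads in the ATF5 value was not tested.

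Both feedback genes were lower. PPP1R15A lies on chromosome 19 from 48872421 to 48876058 and TRIB3 on chromosome 20 from 380760 to 397559 (RefSeq, GRCh38.p14). PPP1R15A encodes GADD34, the inducible subunit that directs protein phosphatase 1 to eIF2 and so restores translation. It was at 183, 181, 181 and 180 CPM in shHNRNPC samples, against 354, 346, 340 and 332 CPM in control samples. The shHNRNPC samples were almost level, at 52.8% of the control mean (log2 fold change -0.92, SE 0.0218, edgeR adjusted p = 5.25e-45). TRIB3 encodes a pseudokinase that binds ATF4 and CHOP and dampens their activity. It was at 79.3, 79.3, 81.4 and 78.6 CPM in shHNRNPC samples, against 177, 176, 190 and 175 CPM in control samples. TRIB3 changed by -1.17 on the log2 scale (SE 0.0276; adjusted p = 3.84e-45, edgeR), and control replicate 3 stood above the other controls. No other gene overlaps the exons of PPP1R15A or TRIB3.

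The 3 effector genes fell further than ATF4, as did all the others of the 10 genes that fell. CHAC1 lies on chromosome 15 from 40953471 to 40956512, SESN2 on chromosome 1 from 28259518 to 28282491 and DDIT4 on chromosome 10 from 72273924 to 72276036 (RefSeq, GRCh38.p14). CHAC1, which encodes an enzyme that degrades glutathione, was at 2.95, 3.28, 3.5 and 3.65 CPM in shHNRNPC samples, against 15.5, 16.6, 16.4 and 15.7 CPM in control samples. At 20.8% of the control mean it was the largest change of the 10 genes (log2 fold change -2.26, SE 0.0948, edgeR adjusted p = 1.83e-31), and it rested on 83 to 116 counts per shHNRNPC library and 493 to 562 per control library. SESN2 encodes sestrin 2, a leucine sensor that restrains the growth kinase complex mTORC1. It was at 22.1, 22.6, 20.5 and 22.3 CPM in shHNRNPC samples, against 80, 76.2, 76.9 and 79 CPM in control samples, a log2 fold change of -1.83 (SE 0.0416, edgeR adjusted p = 4.6e-46). DDIT4 encodes REDD1, which also restrains mTORC1, through the TSC complex. It was at 94.1, 97.8, 97.7 and 101 CPM in shHNRNPC samples, against 296, 307, 301 and 301 CPM in control samples, or 32.5% of the control mean (log2 fold change -1.62, SE 0.0242, edgeR adjusted p = 2.43e-56). An antisense gene, DDIT4-AS1, overlaps 41.2% of the DDIT4 exon bases. The count table has no row under that symbol, and the part of DDIT4-AS1 in the DDIT4 counts was not tested.

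**Figure D2:**
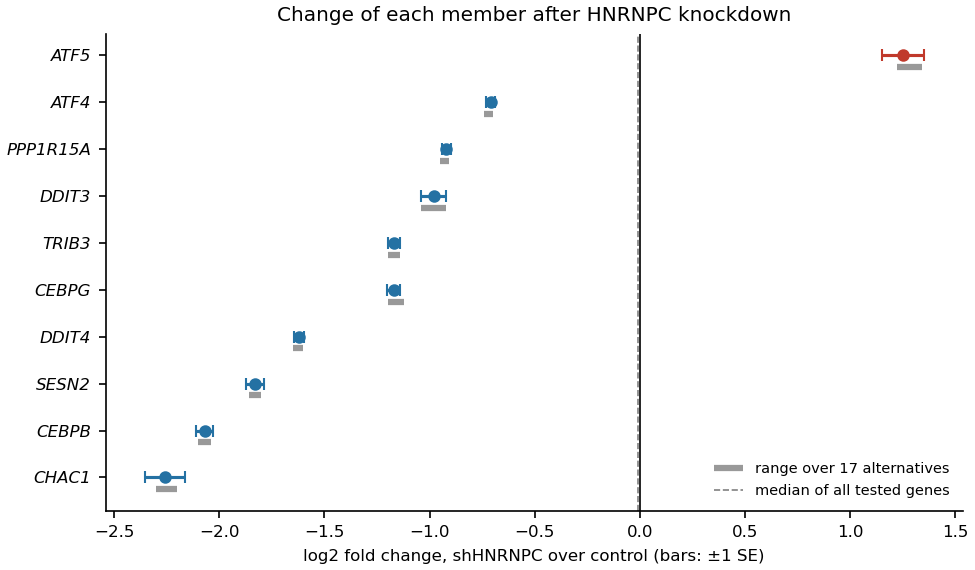
Log2 fold change of each of the 10 genes, shHNRNPC over control (points, bars ±1 SE), with the range over 17 alternative fits as a grey line under each point. The changes run from CHAC1 at -2.26 to ATF4 at -0.71 on the left of 0, with ATF5 alone on the right at 1.25.

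The ratio of each gene to ATF4 within a library depends on how libraries are scaled only through the prior count of 2 added before the log2. It shows how the 10 genes differed among themselves. All 9 ratios computed separated the groups with no overlap (exact two-sided permutation test, p = 0.0286 for each, the smallest that 70 assignments of 4 and 4 samples allow). Since ATF4 itself changed by -0.71, a gene without change would rise relative to it. The share of all tested genes whose ratio to ATF4 separates the groups was not computed, so separation alone does not set these 9 genes apart. In CPM, the groups did not overlap for 70.8% of tested genes. The log2 ratio of CHAC1 to ATF4 was -6.74 ± 0.136 in shHNRNPC samples and -5.2 ± 0.0519 in control samples (SD, n = 4), a difference of -1.53. CEBPB, SESN2 and DDIT4 also fell relative to ATF4, by differences of -1.35, -1.12 and -0.91. TRIB3 and CEBPG moved by -0.46 each. DDIT3 (-0.28) and PPP1R15A (-0.21) stayed nearest to ATF4, and their ratios lay at -4.54 to -4.24 and -1.05 to -0.98 in shHNRNPC samples, against -4.16 to -3.95 and -0.83 to -0.76 in control samples. ATF5 rose relative to ATF4 by 1.96.

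**Figure D3:**
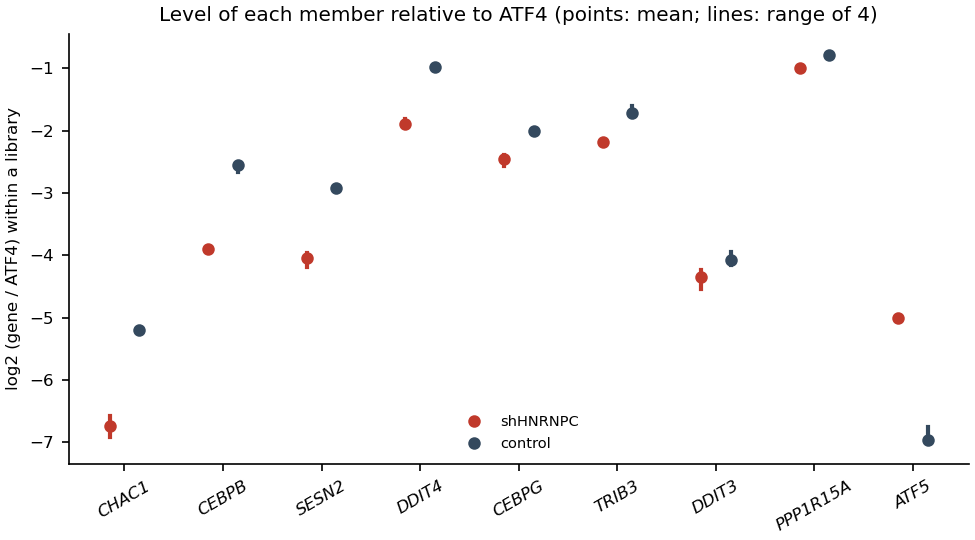
Log2 ratio of each of 9 genes to ATF4 within a library (vertical axis), as the mean (points) and range (lines) of 4 shHNRNPC and 4 control samples. The genes are ordered by the difference between the groups, from CHAC1 (-1.53) to ATF5 (1.96).

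Per kilobase of transcript, ATF4 was the most abundant of the 10 messages in both groups, at 179 ± 4.34 CPM per kb in shHNRNPC samples and 294 ± 4.69 CPM per kb in control samples (SD, n = 4). In shHNRNPC samples the order below it was PPP1R15A (76.2), DDIT4 (55.9), TRIB3 (51.9), DDIT3 (19), CEBPG (16.1), CEBPB (12.3), SESN2 (6.34), ATF5 (5.42) and CHAC1 (2.14 CPM per kb). In control samples it was DDIT4 (172), PPP1R15A (144), TRIB3 (117), CEBPB (51.7), DDIT3 (37.6), CEBPG (36.1), SESN2 (22.6), CHAC1 (10.3) and ATF5 (2.27 CPM per kb). Neighbours in these orders did not overlap over samples except DDIT3 and CEBPG, which overlapped in both groups. DDIT4 and PPP1R15A changed places between the groups, as did ATF5 and CHAC1, and CEBPB dropped below DDIT3 and CEBPG in the shHNRNPC samples.

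The kinases that start the response moved little. HRI (EIF2AK1), which answers to heme and mitochondrial stress, was at 427 ± 10.5 CPM in shHNRNPC samples and 387 ± 3.32 CPM in control samples (SD, n = 4), a log2 fold change of 0.14. PKR (EIF2AK2), the sensor of double-stranded RNA, rose by 0.23 on the log2 scale. PERK (EIF2AK3), the sensor in the endoplasmic reticulum, fell by 0.26, and GCN2 (EIF2AK4), the sensor of uncharged tRNA, did not pass the test (155 ± 4.01 and 160 ± 3.2 CPM, log2 fold change -0.05, edgeR adjusted p = 0.0561). Of the 10 tested kinases and regulators, 2 rose and 5 fell, against 38.7% and 38.6% of all tested genes. The largest change was in IMPACT, an inhibitor of GCN2 activation, at 27.9 ± 2.25 CPM in shHNRNPC samples and 57.2 ± 2.25 CPM in control samples (-1.03), followed by DNAJC3, a chaperone that inhibits PERK (-0.52). Genes of eIF2, its exchange factor eIF2B and its phosphatases were split, with 8 of 16 lower, 7 higher and a median of -0.04. PPP1CC, a catalytic subunit of protein phosphatase 1, rose by 0.82. EIF2D, an initiation factor for non-canonical starts, fell by 0.58, and EIF2B2 fell by 0.41, with 23.6% of its exon bases overlapping other genes.

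Family relatives of the 10 genes went in both directions. PPP1R15B is the constitutive counterpart of GADD34 in eIF2 dephosphorylation. It was at 82, 87.9, 82.7 and 81.9 CPM in shHNRNPC samples, against 52.6, 54.2, 57.7 and 59 CPM in control samples. It rose by 0.58 (SE 0.0355, edgeR adjusted p = 3.72e-23), while PPP1R15A was lower. CEBPD, an acute phase C/EBP factor, was at 21.3, 18.8, 20.9 and 20.4 CPM in shHNRNPC samples, against 10.7, 10.4, 10.6 and 9.09 CPM in control samples (1.00). Among 12 tested genes listed as relatives 9 rose and 3 fell, against 38.7% and 38.6% of all tested genes. Their median log2 fold change was 0.30, against -0.01 over all tested genes. The 9 include CEBPZ (0.08) and SESN1 (0.18), whose groups overlapped. CEBPZ was listed by its symbol and is not a C/EBP leucine zipper protein, yet it counts in the 9 and in the median. The 3 that fell were TRIB2 (-1.19), JDP2 (-1.01), a leucine zipper repressor, and TRIB1 (-0.81). BATF3 rose by 1.07 from low levels (1.06 ± 0.315 CPM in shHNRNPC samples and 0.496 ± 0.0722 CPM in control samples). TRIB1, CEBPZ, SESN1 and the relatives that follow were named after their values were seen. ATF3, a stress factor that ATF4 is known to induce, rose by 0.34 (150 ± 1.77 and 118 ± 2.4 CPM), CEBPA by 0.47 and CHAC2 by 0.26. SESN1 had an edgeR adjusted p of 0.0465. SESN3 rose by 2.25 at 0.558 ± 0.17 CPM in shHNRNPC samples and 0.114 ± 0.0255 CPM in control samples. Exons of other genes cover 43.4% of CEBPA.

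**Figure D4:**
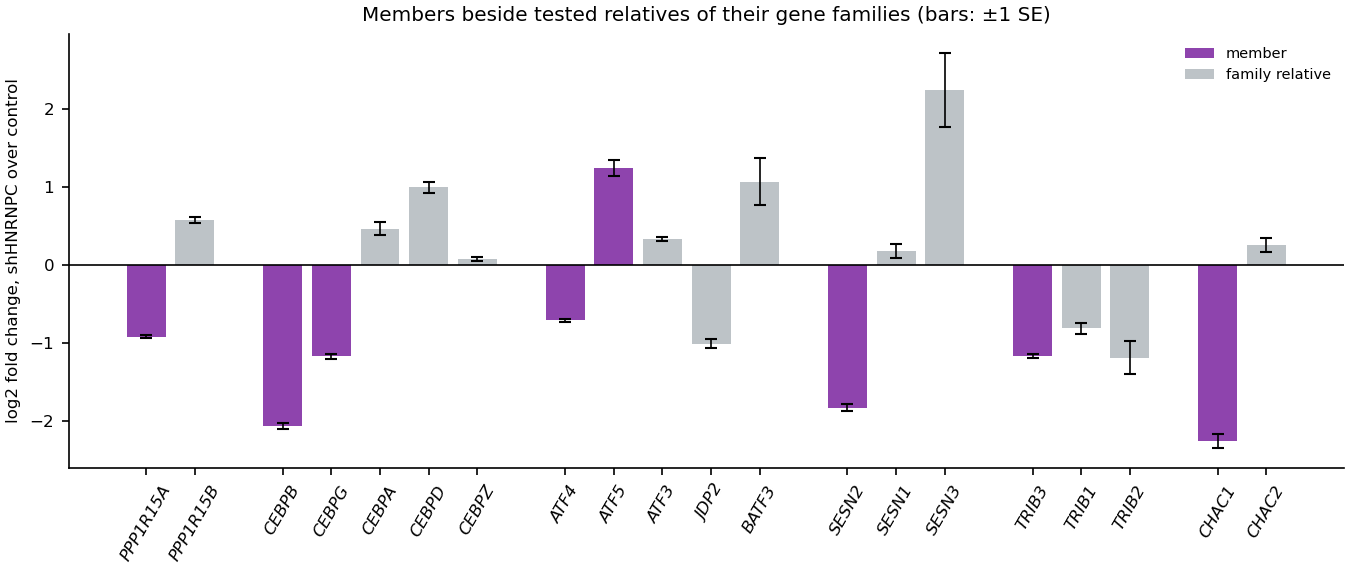
Log2 fold change, shHNRNPC over control, of members (purple bars) and tested relatives of their families (grey bars), with ±1 SE. PPP1R15B, CEBPA, CEBPD, CEBPZ, ATF3, BATF3, SESN1, SESN3 and CHAC2 lie above 0, as does the member ATF5. CEBPZ is shown by its symbol and is not a C/EBP leucine zipper protein. The relatives TRIB1, TRIB2 and JDP2 lie below 0, as do the members PPP1R15A, CEBPB, CEBPG, ATF4, SESN2, TRIB3 and CHAC1.

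Genes listed as targets of ATF4, with CHOP targets in the last list, were given as 4 lists. They are to be read against the 38.6% of all tested genes called lower, the 38.7% called higher and the median of -0.01 over all tested genes. The lists were chosen with earlier results of these data known. Among enzymes of amino acid metabolism, 11 of 13 tested fell and 1 rose (median log2 fold change -0.64). ASNS, the asparagine synthetase, was at 102, 104, 102 and 104 CPM in shHNRNPC samples, against 426, 428, 422 and 449 CPM in control samples (-2.07), although exons of other genes cover 44.6% of it. PSAT1 (-1.42) and PHGDH (-1.29) of serine synthesis and GPT2 (-1.29), a mitochondrial alanine transaminase, followed. SHMT1, chosen after its values were seen, was the enzyme that rose (0.47). All 13 aminoacyl-tRNA synthetases and tRNA exporters of the list fell (median -0.61), led by WARS1 (-1.07), CARS1 (-0.93), SARS1 (-0.90) and MARS1 (-0.88). Among amino acid transporters 8 of 9 tested fell (median -0.91), led by the cystine transporter SLC7A11 (-1.37), SLC1A4 (-1.33), SLC6A9 (-1.28) and SLC7A1 (-0.92). The remaining transporter, SLC7A5, changed by 0.04 (2303 ± 25.9 CPM in shHNRNPC samples and 2236 ± 37.5 CPM in control samples). That call was lost with library totals alone, with upper-quartile factors and without shHNRNPC replicate 4 or control replicate 2. It was also lost without shHNRNPC replicates 1 and 4 and without shHNRNPC replicates 2 and 3.

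The fourth list, of further ATF4 and CHOP targets, was nearer to all tested genes, with 12 of 22 lower and 8 higher (median -0.15). Among those with at least 1 CPM, the largest falls were in secreted factors. ADM2, a peptide of the calcitonin family, was at 0.215 ± 0.137 CPM in shHNRNPC samples and 1.57 ± 0.065 CPM in control samples (SD, n = 4; -2.85). GDF15, a stress cytokine, was at 5.18 ± 1.02 and 32.2 ± 1.57 CPM (-2.63), the glycoprotein hormone gene STC2 at 28.7 ± 1.49 and 141 ± 5.16 CPM (-2.29) and VEGFA at 25.9 ± 0.465 and 80.9 ± 3.79 CPM (-1.64). Some genes known as CHOP targets did the opposite of DDIT3, and were singled out after their values were seen. ERO1A, an oxidase of the endoplasmic reticulum, was at 150, 146, 148 and 140 CPM in shHNRNPC samples, against 48.2, 51.1, 49.6 and 49.8 CPM in control samples (1.56), and BCL2L11, which encodes the cell death protein BIM, rose by 1.00. Other genes of this list, also named after their values were seen, fell as DDIT3 did. They include BBC3 (-1.20), TNFRSF10A (-0.52) and PMAIP1 (-0.18), while TNFRSF10B (0.02) did not pass the test.

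**Figure D5:**
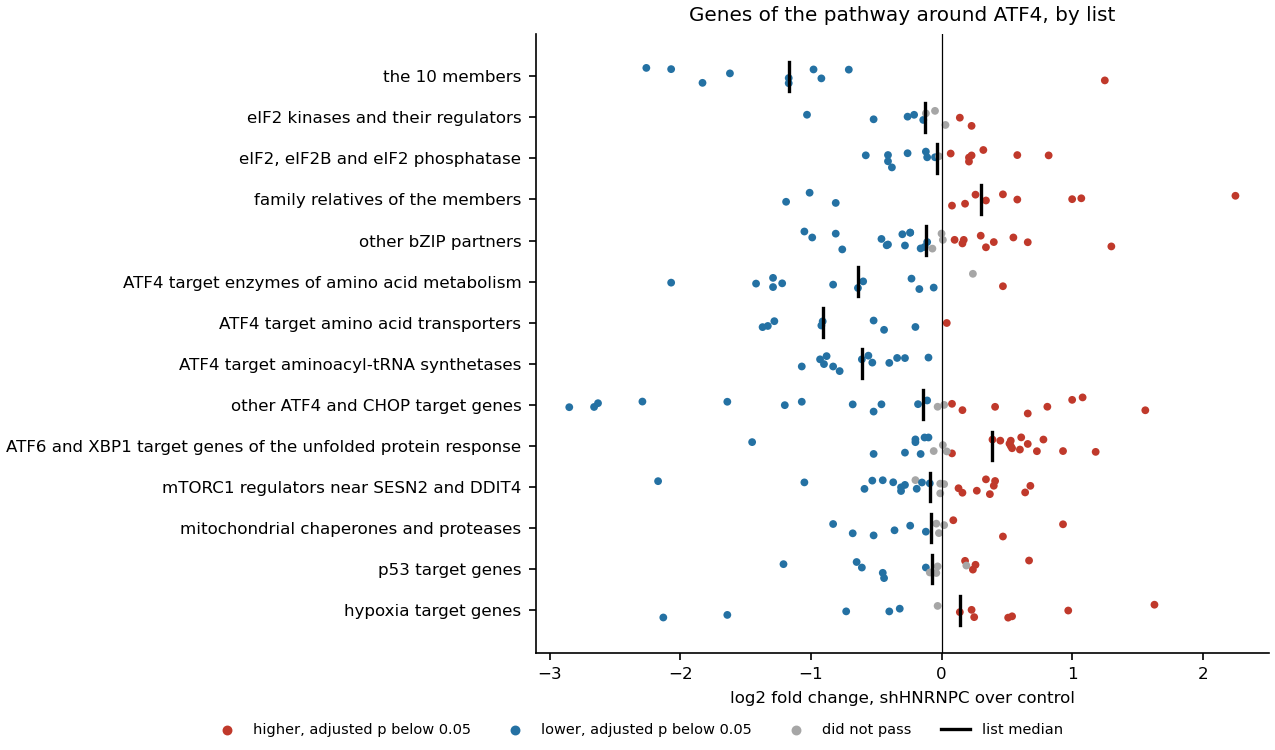
Log2 fold change, shHNRNPC over control, of every tested gene of 14 lists (points, coloured by call), with the median of each list as a vertical line. The medians of the 3 lists of ATF4 target enzymes, transporters and synthetases lie between -0.91 and -0.61, and that of the ATF6 and XBP1 targets lies at 0.39.

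ATF6 and IRE1 with XBP1 are the branches of the response to misfolded proteins in the endoplasmic reticulum that run beside PERK. Of 25 tested genes listed for ATF6 and XBP1, 14 rose and 8 fell (median 0.39), against 38.7% higher and 38.6% lower over all tested genes. The chaperone CALR was at 557 ± 1.56 CPM in shHNRNPC samples and 245 ± 9.19 CPM in control samples (1.18), and HSP90B1 (0.78) and the translocon gene SERP1 (0.93) rose too. ERN1, which encodes the sensor IRE1 and is 1 of the 8 listed genes that fell, fell by 1.45. Among the leucine zipper genes, XBP1 fell by 1.05 and ATF6 by 0.99, whereas ATF6B, named after its values were seen, did not pass the test (54.6 ± 2.64 CPM in shHNRNPC samples and 54.5 ± 1.91 CPM in control samples; SD, n = 4). Other leucine zipper genes were mixed (9 of 26 higher, 14 lower, median -0.12), with JUN lower (-0.81) and FOS higher (1.30).

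Genes around the targets of SESN2 and DDIT4 showed no common direction. Of 25 tested regulators of mTORC1, 9 rose and 12 fell (median -0.09), against 38.7% and 38.6% of all tested genes. EIF4EBP1, a translation repressor that mTORC1 inactivates, was at 62.2, 63.2, 63 and 62.6 CPM in shHNRNPC samples, against 133, 128, 134 and 125 CPM in control samples (-1.05). DEPTOR, an inhibitor of mTOR, was at 0.605 ± 0.254 and 2.7 ± 0.489 CPM (-2.17). CASTOR1, an arginine sensor, rose by 0.68 and the GTPase RRAGC by 0.64, with other genes covering 46% and 22.9% of their exon bases.

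The genes whose profile over the 8 samples was most like that of ATF4 were TCP11L1, MOCOS, AMMECR1L, TRIM44 and GTPBP4. Likeness was the Euclidean distance in log2 CPM after each gene's control mean was subtracted. It was 0.05 for TCP11L1 and 0.0765 for GTPBP4, against a median of 1.47 over the 9506 genes compared. Since the profile is mostly the difference between the groups, these are genes that fell by about as much as ATF4, such as TRIM44 at 287 ± 2.56 CPM in shHNRNPC samples and 466 ± 7.49 CPM in control samples (SD, n = 4; -0.70).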

How the data were processed

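The authors deposited unnormalised whole-number counts for each gene in each sample. Per the labels, the RNA was poly(A) RNA and reads were paired and of 150 bp. Low quality reads were removed with fastp, per the series text, and the submitters' processing notes name hg38. The sources used here do not name an aligner, a counter, an annotation or a strand setting. Samples were grouped by genotype label. Genes were kept with filterByExpr (minimum count 10, total 15), scaled by TMM and tested with edgeR 4.0.16 (quasi-likelihood, robust, group term alone, Benjamini-Hochberg over 12001 genes, threshold 0.05) in R 4.3.3. SE was derived from F and the log2 fold change. The prior count of log2 CPM was 2. The test was checked on simulated counts. Exon overlap, lengths and upstream ATGs came from GENCODE release 29 and positions and promoter windows from RefSeq, and near-identical copies were searched with blastn 2.17.0 at 95% identity. Lengths are of 1 principal coding transcript per gene.

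The 10 genes and all lists were chosen with earlier results of these data known. Besides them, up to 4 genes per list past the threshold with the largest change and at least 1 CPM were named, or, in lists with fewer than 2 such genes, the 2 of lowest p, with the 4 eIF2 kinases, PPP1R15B and the 5 genes most like ATF4 with at least 10 CPM. Alternatives were other scalings, DESeq2 1.42.0, other filters, a replicate block and samples left out.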

Additional observations from a re-analysis of the deposited data

Results flagged for a closer look

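Of 138 groups of 4 samples tested over the 69 genes taken by the naming rule, 8 held a sample far from the other 3, and chance flags about 1 in 20. Among the 10 genes, ATF5 in control replicate 2 was at 5.51 CPM, against 4.37 to 4.49 CPM in the other control samples, still below every shHNRNPC sample. TRIB3 in control replicate 3 was at 190 CPM, against 175 to 177 CPM. Among other genes, PPP1R15B was at 87.9 CPM in shHNRNPC replicate 2, against 81.9 to 82.7 CPM in the other shHNRNPC samples. AFG3L2 (68.8 CPM) and JUN (110 CPM) stood apart in shHNRNPC replicate 3 and BATF3 (1.53 CPM) in shHNRNPC replicate 1. SLC1A4 (76.3 CPM) and DEPTOR (3.43 CPM) stood apart in control replicate 1.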

How the results depend on the processing

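Over 17 alternative fits, all 10 genes kept their direction and their call. ATF4 ranged from -0.74 to -0.70, DDIT3 from -1.04 to -0.92, CHAC1 from -2.30 to -2.20 and ATF5 from 1.22 to 1.34. The scaling alternatives shifted the median of all genes by at most 0.03. The titles share replicate numbers, but deviations of same-numbered samples correlated between -0.0552 and 0.017, so no shared deviation was seen. Counting noise could hide one, so these values cannot exclude a pairing. With the replicate block ATF4 was at -0.71, and 4605 genes were higher and 4614 lower. The number of amino acid transporters called higher, 1 as reported, was 0 with library totals alone, upper-quartile factors, and without shHNRNPC replicates 1 and 4 or 2 and 3, and 0 to 1 with single samples left out. The number of p53 targets called higher, 4, was 2 without shHNRNPC replicates 1 and 4. The causes of these shifts were not tested. Counts per gene do not separate transcripts, and intervals cover the spread between these samples alone.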

Other observations

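SESN2 and DDIT4 are also known targets of p53 and of hypoxia, and ATF5 is linked to mitochondrial protein folding, so those lists were read in the same fit. Of 15 tested p53 targets, 4 rose and 6 fell (median log2 fold change -0.07), against 38.7% and 38.6% of all tested genes. PLK3 (-1.21), XPC (-0.65, 30.4% of exon bases overlapping other genes) and DDB2 (-0.61) were lower and FAS (0.67) was higher. CDKN1A and MDM2, named after their values were seen, were at 26.9 ± 1.44 and 134 ± 2.72 CPM in shHNRNPC samples and 29.2 ± 0.501 and 112 ± 2.47 CPM in control samples (SD, n = 4). Of 13 tested hypoxia targets 7 rose and 5 fell (median 0.14). NDRG1 was at 39.1 ± 1.08 CPM in shHNRNPC samples and 171 ± 3.51 CPM in control samples (-2.13), VEGFA was lower (-1.64), and ADM (1.63) and ANKRD37 (0.97, 35.2% overlapping) were higher.

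Of 12 tested mitochondrial chaperones and proteases, 3 rose and 6 fell (median -0.08), against 38.7% and 38.6% of all tested genes. HSPE1, the small chaperonin, was higher (0.93, 23.9% of exon bases overlapping other genes). The proteases AFG3L2 (-0.83) and LONP1 (-0.52) and the co-chaperone DNAJA3 (-0.68) were lower.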
